A study of Macaca mulatta with 8 samples.

Results

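Axon guidance ligand and receptor genes were taken from the NCBI annotation of the rhesus macaque assembly Mmul_10 (rheMac10) by symbol: protein-coding genes that start with SEMA, PLXN, EPHA, EPHB, EFNA, EFNB, ROBO or UNC5, with SLIT1, SLIT2, SLIT3, NRP1, NRP2, NTN1, NTN3, NTN4 and DCC. The rule found 70 of 21122 protein-coding genes, made up of 34 ligands and 36 receptors or co-receptors. The symbol rule also takes in UNC50 and UNC5CL, which are not netrin receptors and were counted with the UNC5 genes. Chromatin accessibility was measured by bulk ATAC-seq, in which the transposase Tn5 cuts and tags open DNA, on cultured cortex cells of rhesus macaque at post-conceptional days 50, 60, 80 and 85 (E50, E60, E80 and E85). At every stage the cortical tissue had been cut up, cryopreserved, thawed and dissociated with papain. The cells were then plated on polyethylenimine and laminin-521 in a medium that enriches progenitors and holds FGF2, EGF and BDNF, with the CEPT survival cocktail at plating. Each stage was 1 culture split into 2 technical libraries, 8 libraries in all, and the sources used here give neither the number nor the sex of the animals. No perturbation was applied, so the comparisons are between stages, and stage cannot be told apart from animal or culture.

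Growth cones find their way by reading cues with receptors on their surface. Semaphorins act through plexins, and the secreted class 3 semaphorins mostly need neuropilins as co-receptors. Ephrins are bound to the membrane and signal in both directions with Eph receptors. Netrins attract through DCC and repel through UNC5 receptors, and SLIT proteins repel through ROBO receptors, which in the cortex also act in progenitors and migrating neurons.

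The unit was the merged region, a stretch of genome in which the authors joined overlapping peaks, and a region was called at a stage when it held at least 1 peak of that stage. Regions were assigned to a locus, the gene body plus 5 kb upstream. At least 1 region was found at 68 of the 70 loci, against 77.3% of all protein-coding loci, and the exceptions were EPHA8 and ROBO4, the latter a ROBO known from endothelium. The loci held 547 of 72358 regions, and no region lay in more than 1 of them. Of the 547, 13 also lay in the locus of a protein-coding gene outside the set. With 1 culture a stage there was no test, and all intervals below are exact 95% intervals that cover counting error alone. In bulk cells, fewer cells of a type and fewer open copies per cell cannot be told apart.

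Regions that carry the stage differences are shown first. For 7 of the loci with the largest E60 or E80 excess in their family, 200 bases are printed around the centre of an intronic region called at 1 stage alone, from the plus strand of Mmul_10. Ties went to the locus with more regions: SEMA6D was tied with SEMA5B and SEMA6A, NTN1 with DCC, and EPHA3 with EPHA5 and EPHA10. EPHA3 had no region that met the rule for printing, and no sequence is shown for UNC5D. Capitals mark 1 searched motif, an E-box (CAGCTG, the letters of proneural bHLH factors), a homeobox motif (TAATTA) or an AP-1 motif (TGACTCA, or TGAGTCA on the other strand). The printed region was the one outside promoters whose match lay nearest its centre: AP-1 for E80 alone, homeobox or E-box for E60 alone. Each thus holds a match by choice. Among E60-alone regions, E-box letters lay within 150 bp of the centre in 2 of 4 at SEMA6D and 1 of 5 at PLXNC1. They did so in 2 of 4 at EFNB2 and 1 of 3 at NTN1, and homeobox letters in 4 of 12 at ROBO2. AP-1 letters did so in 1 of 3 E80-alone regions at SEMA5A and 3 of 4 at PLXNA4. A match is a description of letters, not evidence of binding.
SEMA6D, E60 alone, chr7:23711269-23711468: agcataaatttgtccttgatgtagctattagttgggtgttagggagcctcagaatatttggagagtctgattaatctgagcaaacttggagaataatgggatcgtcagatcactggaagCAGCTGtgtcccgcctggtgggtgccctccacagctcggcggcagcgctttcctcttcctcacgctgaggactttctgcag
PLXNC1, E60 alone, chr11:93972102-93972301: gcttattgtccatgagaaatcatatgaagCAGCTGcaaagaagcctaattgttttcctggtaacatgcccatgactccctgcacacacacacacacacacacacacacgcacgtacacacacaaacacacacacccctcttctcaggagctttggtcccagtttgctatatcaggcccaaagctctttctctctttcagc
EFNB2, E60 alone, chr17:88068084-88068283: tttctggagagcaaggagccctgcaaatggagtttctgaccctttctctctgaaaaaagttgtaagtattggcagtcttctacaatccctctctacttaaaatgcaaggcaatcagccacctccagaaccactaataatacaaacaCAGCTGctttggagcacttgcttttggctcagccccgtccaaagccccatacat
NTN1, E60 alone, chr16:9031863-9032062: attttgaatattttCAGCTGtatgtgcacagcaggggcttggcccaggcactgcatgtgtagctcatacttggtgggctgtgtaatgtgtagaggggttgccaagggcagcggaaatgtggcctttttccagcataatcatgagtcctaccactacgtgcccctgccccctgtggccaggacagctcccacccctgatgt
ROBO2, E60 alone, chr2:194579832-194580031: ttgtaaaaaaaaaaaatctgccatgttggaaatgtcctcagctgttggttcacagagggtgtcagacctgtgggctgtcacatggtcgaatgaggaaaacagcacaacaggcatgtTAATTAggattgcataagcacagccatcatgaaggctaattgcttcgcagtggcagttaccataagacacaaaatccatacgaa
SEMA5A, E80 alone, chr6:9323546-9323745: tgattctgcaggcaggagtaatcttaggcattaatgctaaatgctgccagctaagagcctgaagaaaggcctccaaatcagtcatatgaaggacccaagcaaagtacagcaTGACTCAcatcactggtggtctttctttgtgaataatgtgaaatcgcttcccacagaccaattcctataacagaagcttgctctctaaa
PLXNA4, E80 alone, chr3:158626239-158626438: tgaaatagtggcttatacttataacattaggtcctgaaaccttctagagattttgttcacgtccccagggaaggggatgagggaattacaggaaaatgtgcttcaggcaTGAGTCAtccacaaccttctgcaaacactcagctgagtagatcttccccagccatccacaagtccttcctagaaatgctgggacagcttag
The centres of these regions lay 116.8 kb (SEMA6D), 15.8 kb (PLXNC1), 19.3 kb (EFNB2), 223.0 kb (NTN1), 1413.3 kb (ROBO2), 177.5 kb (SEMA5A) and 273.8 kb (PLXNA4) inside the gene from its start. The ROBO2 and EFNB2 regions also held a lifted peak, a peak from sets with no definition in the labels. The other 5 did not.

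Axon guidance loci were open mostly at E60 and E80. Of the 547 regions, the E50 set held 112 (20.5%, 17.2 to 24.1), the E60 set 471 (86.1%, 82.9 to 88.9), the E80 set 414 (75.7%, 71.9 to 79.2) and the E85 set 192 (35.1%, 31.1 to 39.3). Over the regions of all protein-coding loci these shares were 30.2%, 84.8%, 82.1% and 44.3%. The whole peak sets also differed in size, with 19833, 61956, 60278 and 30701 peaks in stage order, and that difference touches every value given for E50 or E85. Loci with at least 10 regions, of which the family had 22 (against 4.27% of all protein-coding loci), had closer shares: 18.5%, 83.9%, 74.4% and 33.2%, beside 20.3%, 82.9%, 77.7% and 34.7% for all such loci.

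Most regions of these loci were intronic. There were 382 intronic regions (69.8%), 97 within 1000 bp of a transcription start (17.7%), 50 exonic (9.14%) and 18 intergenic (3.29%). Over all protein-coding loci, introns held 53.0% and promoters 34.0%, but among loci with at least 10 regions the values were close, 78.2% intronic against 80.4% and 11.4% promoter against 13.0%. The loci are long, with a median of 56.9 kb against 25.9 kb. Among loci with at least 1 region the median density was 6.8 regions per 100 kb against 5.9. The density pooled over all loci, with or without a region, was 3.75 against 3.81. Density differed widely between families. By the median it was highest at the ephrins with 20.2 regions per 100 kb, and lowest at the SLIT and ROBO genes with 3.06. The median ephrin locus was 15.8 kb, though that of EFNA5 was 299 kb. Pooled over loci, the ephrins had 9.81, close to the plexins and neuropilins with 9.38. The SLIT and ROBO genes then had 2.4, close to the netrins, DCC and UNC5 genes with 2.49. EPHA6 had 2 regions in a locus of 938 kb.

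Regions called at E60 and E80 but at neither other stage were the largest class, with 187 regions (34.2%, against 29.4% of all regions). A further 115 were called at E60 alone (21.0% against 16.4%), 100 at all 4 stages (18.3% against 23.5%), 63 at all but E50 (11.5% against 12.1%) and 51 at E80 alone (9.32% against 13.3%). Over the regions of all protein-coding loci the 5 shares were 28.3%, 14.9%, 27.9%, 12.3% and 11.5%. The interval for E80 alone (7.02 to 12.1) held this last value. Among loci with at least 10 regions the differences were smaller than those from all regions, and each interval held the value of all such loci: 33.8% (29.0 to 38.9) against 32.1% for E60 with E80, 21.8% (17.7 to 26.4) against 19.2% for E60 alone, 16.1% (12.5 to 20.2) against 18.3% for all 4 stages, and 10.6% (7.67 to 14.2) against 13.3% for E80 alone. Only 1 region, in the NRP2 locus, was called at E50 alone. Regions called at all 4 stages were the widest, with a median of 978 bp, and those called at E80 alone were narrowest among the 5 large classes, with a median of 266 bp.

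**Figure D1:**
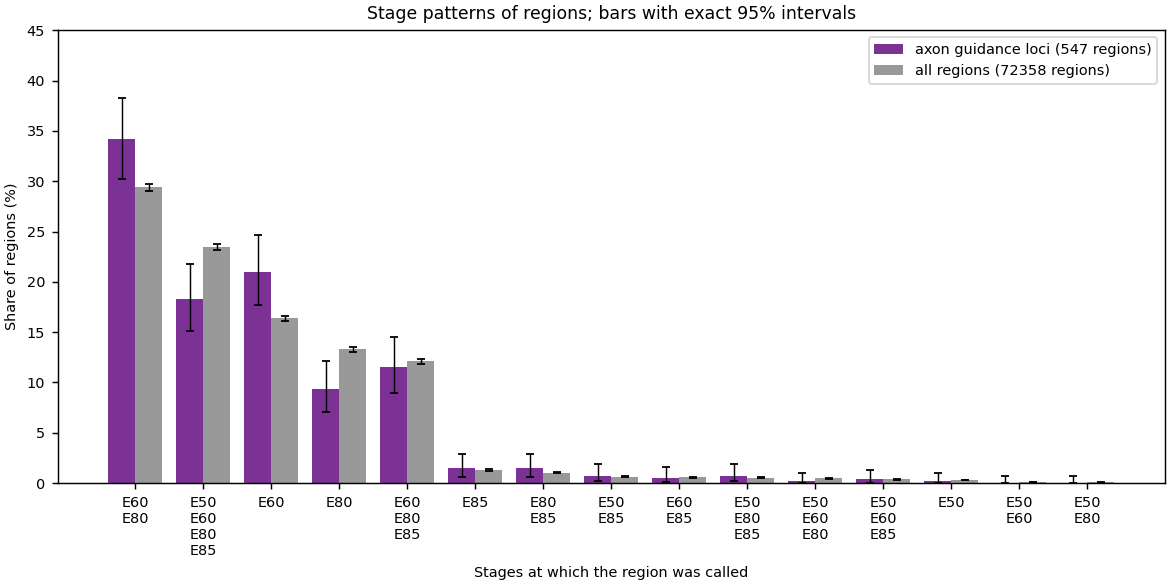
Share of regions (%) with each pattern of stages, for axon guidance loci (547 regions) and all regions (72358), with exact 95% intervals. The axon guidance bars are higher than the all-region bars for E60 with E80 and for E60 alone, and lower for all 4 stages and for E80 alone.

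The E60 and E80 sets are close in size, so their comparison is the least touched by set size. At axon guidance loci 120 regions were called at E60 and not at E80, and 63 at E80 and not at E60, an E80 share of 34.4% (27.6 to 41.8). The share was 45.3% (44.4 to 46.1) over all protein-coding loci. More E60 regions were found at 30 of the 68 loci, where 20.2% of all loci had more, and more E80 regions at 9, where 17.2% had more. Among the 22 loci with at least 10 regions, 15 had more E60 regions (52.1% of such loci) and 4 more E80 regions (34.5%), with an E80 share of 36.4% (28.1 to 45.4) against 42.7% (41.3 to 44.0). The difference is thus smaller among loci of like region number. Regions with a lifted peak had an E80 share of 22.5% (14.3 to 32.6) and those without had 45.7% (35.4 to 56.3), beside 33.6% and 55.1% over all regions. Lifted peaks thus moved with the share, and their part in it was not tested.

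**Figure D2:**
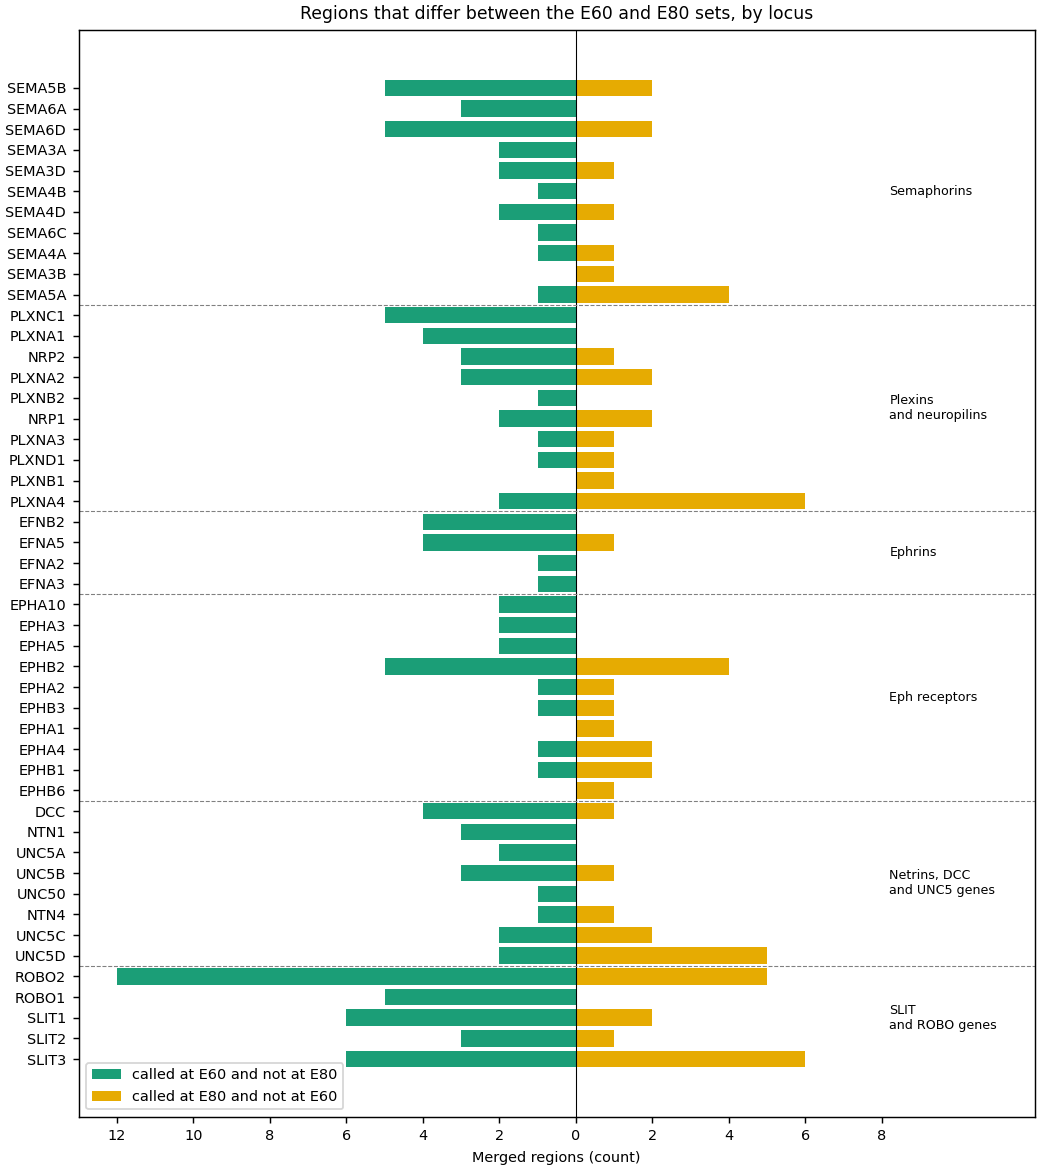
Regions (count) called at E60 and not at E80 (left) and at E80 and not at E60 (right), for each locus with any, by family. ROBO2 has the longest E60 bar with 12 regions, and PLXNA4 and SLIT3 have the longest E80 bars with 6 each.

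Semaphorins, the largest ligand family, had 126 regions at 20 loci, with 23 E60-specific and 12 E80-specific regions (E80 share 34.3%, 19.1 to 52.2). That interval held the E80 shares over all protein-coding loci (45.3%) and over those with at least 10 regions (42.7%). SEMA6D, a transmembrane semaphorin (chr7:23594566-24184027, plus strand), had the most, 19 regions, called 4, 16, 13 and 8 times at E50, E60, E80 and E85. It had 5 E60-specific and 2 E80-specific regions, and its regions called at all 4 stages lay at 11.9 kb, 198.5 kb and an internal start 533.9 kb in. SEMA5A, a transmembrane semaphorin with thrombospondin repeats (chr6:8991061-9501142, minus strand), went the other way, with calls of 2, 9, 12 and 4 and 1 E60-specific against 4 E80-specific regions. Of these 4, 3 were called at E80 alone, and the printed region is 1 of them. SEMA3A, a secreted repellent of cortical axons, had 8 regions, all called at E60, 6 at E80 and 1 each at E50 and E85, and none at its start.

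Plexins and neuropilins, the semaphorin receptors, had 127 regions at 11 loci, with a median density of 10.3 per 100 kb. The family had 22 E60-specific and 14 E80-specific regions (E80 share 38.9%, 23.1 to 56.5). The interval held the 45.3% of all protein-coding loci and the 42.7% of those with at least 10 regions. PLXNA2 (chr1:65517022-65739058, minus strand) had 28 regions, the most of any axon guidance gene, called 7, 24, 23 and 13 times. It had 3 E60-specific and 2 E80-specific regions, and 6 of its regions were called at all 4 stages. PLXNC1, the receptor of SEMA7A (chr11:93956372-94115273, plus strand), had 9 regions, all called at E60, 4 at E80, 1 at E85 and none at E50, so its 5 discordant regions were all E60-specific. PLXNA4 (chr3:158450403-158900150, minus strand) had 23 regions called 4, 15, 19 and 10 times, with 2 E60-specific and 6 E80-specific. Beyond the genes chosen by the rule, the co-receptor NRP2 had 25 regions (6, 23, 21 and 10), singled out after its values were seen.

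Ephrins had 43 regions at 8 loci, and 42 of these were called at E60. That was 97.7% (87.7 to 99.9), against 84.8% over all protein-coding loci and 82.9% over those with at least 10 regions. Of 11 discordant regions, 10 were E60-specific and 1 E80-specific. The E80 share was 9.09% (0.23 to 41.3), against 45.3% and 42.7%, and rests on these 11 regions alone. EFNA5 (chr6:104830770-105125099, minus strand), a GPI-anchored ephrin, had 13 regions called 1, 12, 9 and 6 times. EFNB2, a transmembrane ephrin (chr17:88041697-88087507, minus strand), had 12 regions in 50.8 kb, all called at E60, 8 at E80, 3 at E85 and 1 at E50. The 4 E60-specific regions of EFNB2 lay 3.2 to 43.3 kb inside the gene. Of the 43 ephrin regions, 37 (86.0%) held a lifted peak, against 64.2% over all axon guidance regions.

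Eph receptors, the receptor tyrosine kinases that bind ephrins, had 81 regions at 13 of 14 loci. Their E60-specific and E80-specific counts were closer, 15 and 12 (E80 share 44.4%, 25.5 to 64.7). The interval held the 45.3% of all protein-coding loci and the 42.7% of those with at least 10 regions. EPHB2 (chr1:201855356-202069022, minus strand) had 20 regions called 4, 16, 15 and 5 times, with 5 E60-specific and 4 E80-specific. EPHA3 (chr2:182614119-182972395, minus strand) had 8 regions, all called at E60, 6 at E80, 3 at E85 and 2 at E50. EPHB1, singled out after its values were seen, had the most E50 regions of any axon guidance gene: 9 of its 16, beside 12, 13 and 9 at E60, E80 and E85. It had 7 regions called at all 4 stages, and 2 called at E50 and E85 but not between. EPHA1 was called at E80 alone, in 1 region 2.2 kb upstream of its start.

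Netrins, DCC and UNC5 genes had 69 regions at 10 loci, with 18 E60-specific and 10 E80-specific (E80 share 35.7%, 18.6 to 55.9). The interval held the 45.3% of all protein-coding loci and the 42.7% of those with at least 10 regions. NTN1, the main secreted netrin (chr16:8808946-9035470, plus strand), had 11 regions, all called at E60, 8 at E80, 3 at E85 and 2 at E50. DCC, its attractive receptor, had 9 regions, of which 8 were called at E60, 5 at E80 and 1 each at E50 and E85. The repulsive receptors UNC5B (chr9:66480939-66571642, minus strand) and UNC5D (chr8:35627331-36199460, plus strand) had 13 regions each. UNC5B was called 3, 12, 10 and 4 times, with 3 E60-specific and 1 E80-specific region. UNC5D was called 1, 8, 11 and 2 times, with 2 E60-specific against 5 E80-specific regions, all intronic. The 2 genes taken in by symbol alone added 3 regions.

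SLIT and ROBO genes had 101 regions at 6 of 7 loci, of which 7 were called at E50 (6.93%, 2.83 to 13.8, against 30.2% over all protein-coding loci and 20.3% over those with at least 10 regions), 83 at E60, 65 at E80 and 24 at E85. The family had 32 E60-specific and 14 E80-specific regions (E80 share 30.4%, 17.7 to 45.8, against 45.3% and 42.7%, both within the interval). It had 5 regions called at all 4 stages (4.95%, 1.63 to 11.2, against 27.9% and 18.3%). ROBO2 (chr2:194219571-195993226, minus strand) had 27 regions in 1779 kb, called 2, 19, 12 and 6 times, with 12 E60-specific and 5 E80-specific, the largest E60 excess of any axon guidance gene. All but 1 of its E60 regions lay at least 1054.2 kb from the outermost start. ROBO1, singled out after its values were seen, had 19 regions, all called at E60, 14 at E80, 1 at E85 and none at E50. The single E85 region of ROBO1 lay at an internal start 751.9 kb in. Among the ligands, SLIT1 had 20 regions (2, 18, 14 and 6) and SLIT3 had 24 (1, 18, 18 and 5), with 6 E60-specific and 6 E80-specific at SLIT3.

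**Figure D3:**
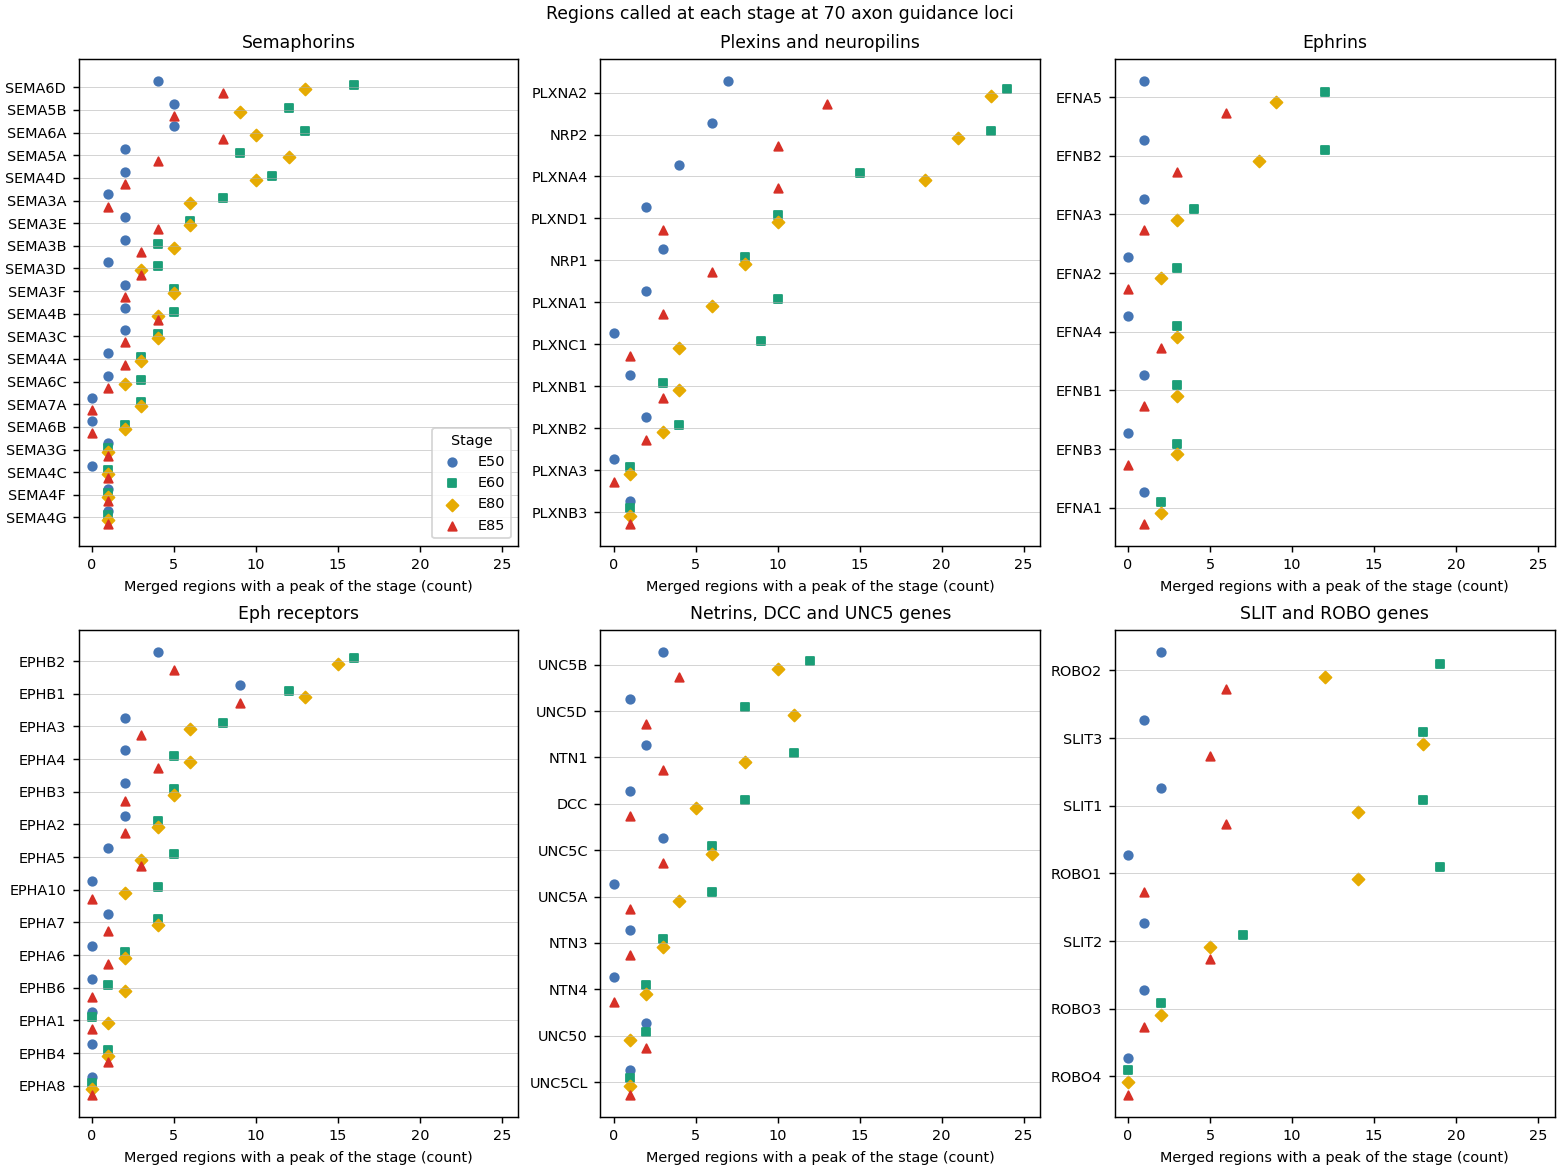
Regions called at each stage (count) for every axon guidance gene, by family, with 1 marker per stage. E60 and E80 markers lie to the right of E50 and E85 at most loci, and the E80 marker is right of E60 at PLXNA4, SEMA5A and UNC5D among others.

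**Figure D4:**
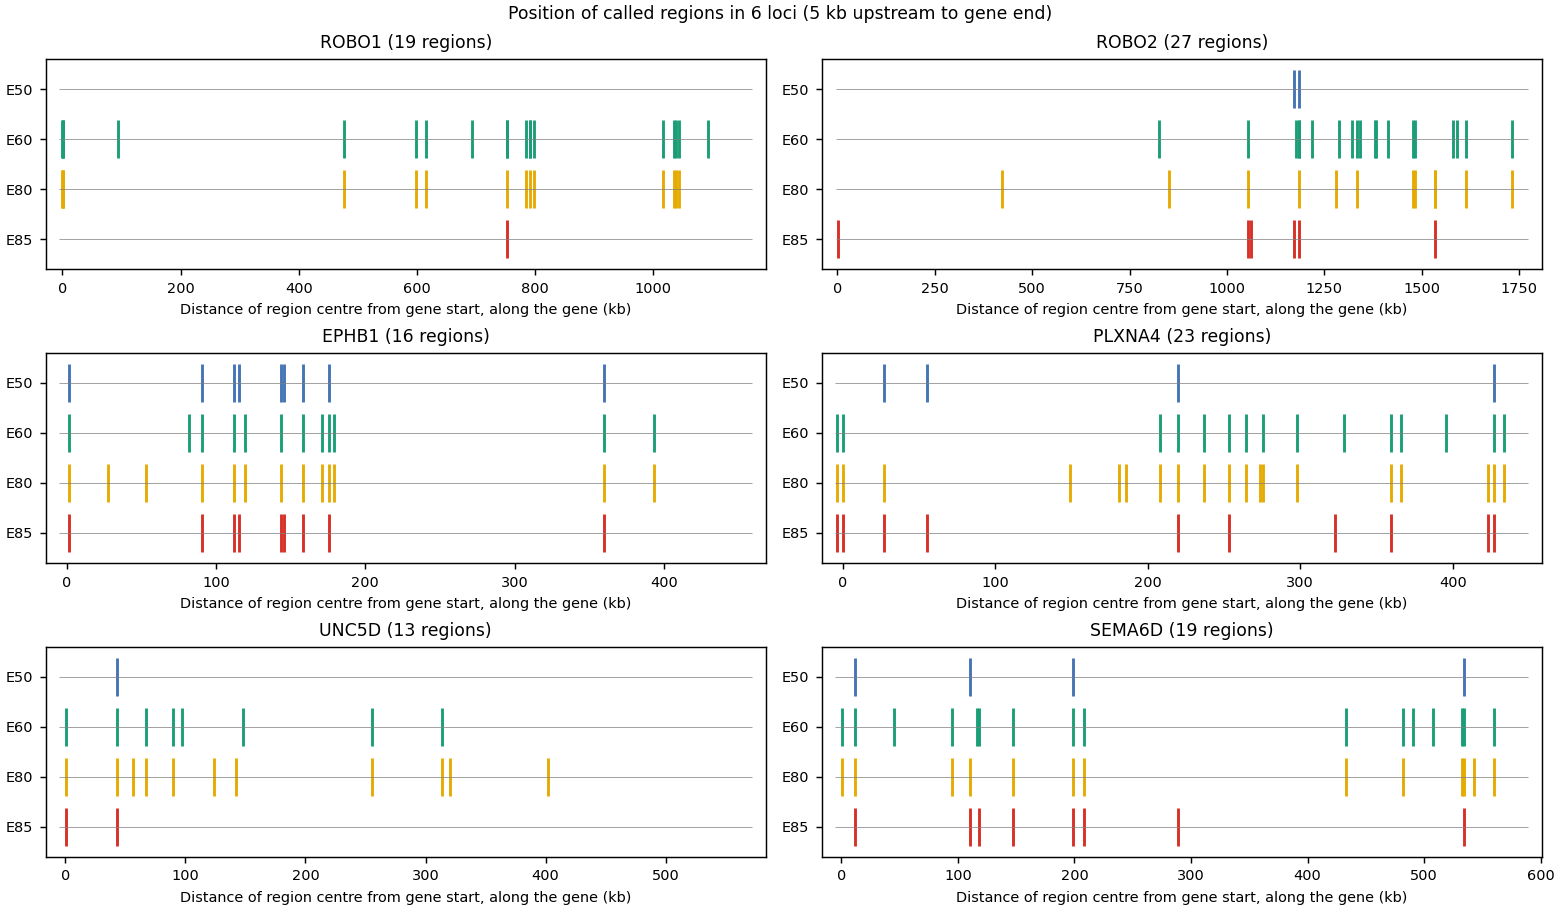
Position of called regions along 6 loci, as distance of the region centre from the gene start (kb), with 1 line of ticks per stage. ROBO1 has no E50 tick and 1 E85 tick, while EPHB1 has 9 at each of these stages.

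The comparisons with the smaller sets followed set size closely. Between E50 and E60, 368 regions were in the E60 set alone of the pair, and 9 the reverse, an E60 share of 97.6% (95.5 to 98.9) against 97.4% over all protein-coding loci. More E60 regions were found at 61 loci (63.5% of all loci) and more E50 regions at none (1.59%). All 22 axon guidance loci with at least 10 regions had more E60 regions, as did 901 of all 902 such loci. The 9 exceptions lay at EPHB1 and PLXNA4, with 2 each, and at EPHA2, ROBO2, NRP2, PLXNA2 and SEMA6D. Between E80 and E85, 17 regions were called at E85 and not at E80, and 239 the reverse, an E85 share of 6.64% (3.92 to 10.4) against 6.04%. More E80 regions were found at 56 loci (51.6%), and UNC50 alone had more E85 regions (2.15%). With at least 10 regions, all 22 axon guidance loci and 894 of all 902 loci had more E80 regions. With stages joined, 67 regions were late-only (E80 or E85, neither E50 nor E60) and 116 early-only, a late-only share of 36.6% (29.6 to 44.0) against 47.2%. More early-only regions were found at 27 loci (19.6%) and more late-only at 10 (17.8%). Among loci with at least 10 regions the late-only share was 38.6% (30.3 to 47.5), an interval that held the 45.1% of all such loci. More early-only regions were found at 14 of these 22 loci, against 443 of 902, and more late-only at 5, against 341. The late-only share rests on the same E60 and E80 sets and is not a second line of support.

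Promoters of these genes were called at E60 and E80 far more than at E50. A promoter call, a region within 1000 bp of a start of the gene, was found for 28 of the 70 genes at E50 (44.3% of all protein-coding genes), 59 at E60 (64.7%), 59 at E80 (63.2%) and 38 at E85 (53.0%). The 28, 59, 59 and 38 are 40.0%, 84.3%, 84.3% and 54.3% of the 70 genes. Among loci with at least 10 regions the axon guidance shares were below those of all genes at every stage, which overall was so at E50 alone: 45.5%, 90.9%, 90.9% and 63.6% for axon guidance genes and 60.2%, 94.8%, 94.1% and 76.9% for all genes. Calls at all 4 stages were found at 27 genes (42.7% of all genes), and calls at E60 and E80 alone at 21 (10.1%), among them DCC, NTN1, NTN3, NTN4, UNC5A and UNC5C. This pattern made up 30.0% of the 70 genes, and among loci with at least 10 regions 27.3% against 17.3%. The other 15 were SEMA3E, SEMA3F, SEMA4D, SEMA5A, SEMA7A, PLXNA3, PLXNC1, PLXND1, EFNA2, EFNA3, EFNB3, EPHA3, EPHB2, EPHB6 and SLIT3.

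Of the 58 genes with a promoter call at both E60 and E80, 27 also had one at E50 (46.6%, 33.3 to 60.1), against 69.4% of all such genes, and 37 at E85 (63.8%, 50.1 to 76.0), against 83.3%. In loci with at least 10 regions the E50 values were 47.4% (24.4 to 71.1) and 63.7% (60.4 to 67.0), whose intervals overlap. All 8 ephrins were called at E60 and E80. No call at any stage was found for 10 genes (33.1% of all genes): SEMA3A, SEMA3G, SEMA6B, PLXNA1, EPHA1, EPHA8, EPHA10, UNC5CL, ROBO3 and ROBO4. SLIT1 was called at E60 alone, a pattern that 2.47% of all genes had. ROBO2 had promoter calls at E50, E80 and E85 but not at E60, each stage in a different mix of its starts: a 2308 bp region at an internal start was called at E50 and E85, 1 at another start at E80 alone, and the outermost start at E85 alone.

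**Figure D5:**
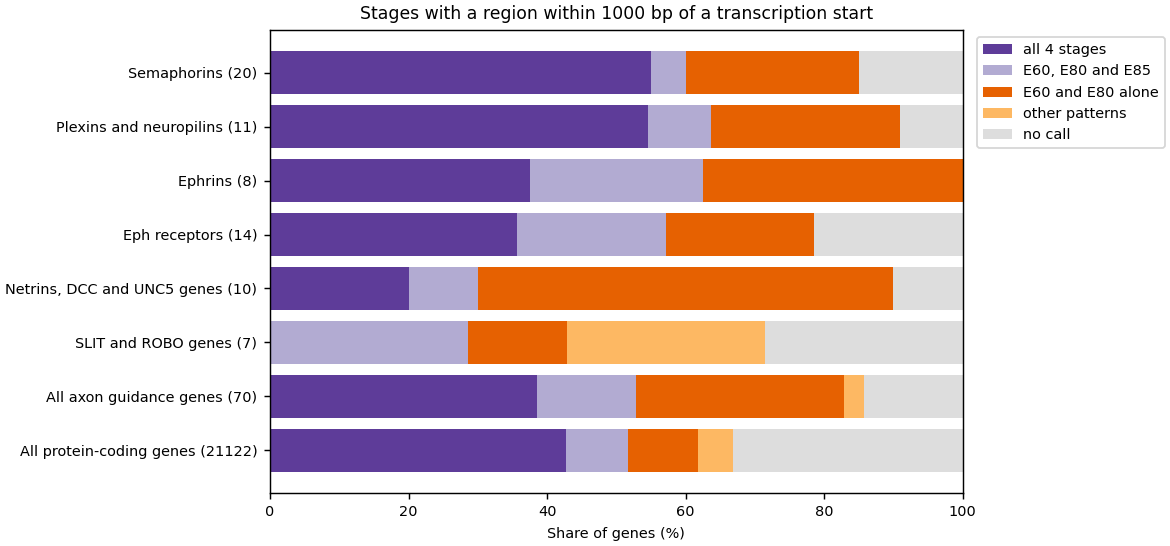
Share of genes (%) by stages with a promoter call, for each family, all 70 axon guidance genes and all 21122 protein-coding genes. The netrin, DCC and UNC5 bar is mostly E60 and E80 alone (60.0%), and no SLIT or ROBO gene has all 4 stages.

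The letters of 9 motifs were searched within 150 bp of region centres. AP-1 letters were found in 33 of the 51 regions called at E80 alone (64.7%, 50.1 to 77.6), against 43.0% (42.0 to 44.0) of all regions of that class, and in 22 of the 27 loci with such a region. Within 75 bp of the centre the share was 49.0% (34.8 to 63.4), an interval that held the 35.1% of all regions of the class. They were found in 10 of 115 regions called at E60 alone (8.7% against 10.9%) and 10 of 100 called at all 4 stages (10.0% against 11.1%). Promoters made up 32.0% of these regions called at all 4 stages, against 50.5% of all such regions. Outside promoters AP-1 letters were in 9 of 68 of them (13.2%, 6.23 to 23.6) against 19.7%. TEAD letters (ACATTCC) were found in 14 of 100 regions called at all 4 stages (14.0%, 7.87 to 22.4) against 4.14%. Outside promoters they were in 13 of 68 (19.1%, 10.6 to 30.5) against 6.45%, at 10 of 36 loci with such a region. They were found in 2 of 51 regions called at E80 alone (3.92% against 9.96%). These were singled out after the values of all 9 motifs in each class had been seen. Homeobox letters were found in 22 of 115 regions called at E60 alone (19.1%, 12.4 to 27.5) against 14.8%, and E-box letters in 35 of them (30.4% against 31.6%).

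For the SOX, CTCF, POU and NFI motifs, the interval held the share of all regions in each of 4 classes (all 4 stages, E60 with E80, E60 alone and E80 alone). Among E60-alone regions, the SOX letters ACAAAG were found in 30.4% (30.1% of all) and ACAATG in 15.7% (19.4%), CTCF letters in 6.09% (4.45%), and POU letters in 3.48% (4.7%). NFI letters were found in none of the 547 regions, which allows up to 0.672%, and in 0.0802% of all regions.

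The same counts were made for other guidance genes, beside an E80 share of 45.3% over all protein-coding loci, of which 20.2% had more E60 and 17.2% more E80 regions. Among loci with at least 10 regions these values were 42.7%, 52.1% and 34.5%. The lists below were not limited to such loci, so neither background is matched to them in region number. Of 30 further cues and co-receptors, with 267 regions, 71 were E60-specific and 33 E80-specific (E80 share 31.7%, 22.9 to 41.6), with more E60 regions at 16 genes and more E80 regions at 7. PTPRD, a receptor phosphatase, had 10 against 0, and DSCAML1, an adhesion molecule, 13 against 5. On the other side MET, the HGF receptor, had 0 against 3, and GPC1, a heparan sulfate proteoglycan that binds SLIT, 1 against 3. Of 45 signalling effectors, with 409 regions, 58 were E60-specific and 69 E80-specific (E80 share 54.3%, 45.3 to 63.2, whose lower bound is at the share over all loci), with more E60 regions at 13 genes and more E80 regions at 19. FYN and SRGAP3 had 7 against 2 each, and ABL2 and NGEF 0 against 4 each.

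Promoters of marker genes for cell types were read in the same way. All 12 radial glia markers were called at all 4 stages, and 5, 6, 7 and 6 of 7 telencephalon markers at E50, E60, E80 and E85. Neuron markers were called at 4, 8, 7 and 4 of 10, endothelial markers at 0, 5, 4 and 0 of 9, mesenchymal and mural markers at 1, 4, 3 and 3 of 9, and none of 10 microglia markers at any stage. Promoters of all protein-coding genes were also called more often at E60 and E80 (44.3%, 64.7%, 63.2% and 53.0% in stage order). In the comparison of E60 with E80, all protein-coding loci had 7407 E60-specific and 6131 E80-specific regions (E80 share 45.3%). Radial glia loci had 25 and 6 (19.4%, 7.45 to 37.5), and telencephalon loci 6 and 1 (14.3%, 0.361 to 57.9). Neuron loci had 21 and 12 (36.4%, 20.4 to 54.9), endothelial loci 8 and 8, and mesenchymal and mural loci 1 and 0. The telencephalon and neuron intervals held the share over all loci. Among radial glia loci GLI3 had 9 against 1 and PTPRZ1 7 against 0, while VIM had 0 against 2. Among neuron loci MAP2 had 8 against 0 and GAP43 0 against 5. PAX6 was in both the radial glia and telencephalon lists. Radial glia, telencephalon and neuron loci thus had more E60-specific than E80-specific regions, as axon guidance loci and all protein-coding loci did. The part of these marker loci in the results was not tested.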

How the data were processed

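The authors deposited 1 table of merged ATAC-seq regions for 8 libraries, 2 for each of 4 stages, of 112696 regions. Bowtie2 2.5.1, SAMtools 1.15, cutadapt 4.4 and rheMac10 (the assembly Mmul_10) are listed in the submitters' processing notes. Not given in the sources used here are the peak caller, its threshold and any pooling. The measurement was the deposited peak names: a region was called at a stage when it held at least 1 stage peak with the tag nativeFiltered, which left 72358 regions. The remaining 40338 hold lifted peaks alone and were left out. The 8 unnamed columns of values could not be matched to libraries and were not used, so depth per library is unknown. The planned design held no test, because each stage was 1 culture.

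A locus was the gene body plus 5 kb upstream, and a region was counted when it overlapped by at least 1 bp. Promoter regions lay at most 1000 bp from the start of any protein-coding or lncRNA transcript (NCBI annotation of Mmul_10). All others were called distal. Motifs were searched on both strands within 150 bp of the region centre: AP-1 TGACTCA, TEAD ACATTCC, homeobox TAATTA, E-box CAGCTG, SOX ACAAAG and ACAATG, POU ATGCAAAT and the NFI and CTCF consensus motifs. None of these was barred from overlapping another. Intervals are exact (Clopper-Pearson, 95%) and cover counting error alone. Genes named in full were, in each family, the one with the most regions and those with the largest excess of E60-specific or E80-specific regions (at least 2). Other genes named were chosen after their values were seen. The members and lists were chosen with earlier results of these data known. The overlap step was tested on simulated data. Python 3.11.15, pandas 2.3.3, SciPy 1.17.1 and matplotlib 3.10.9 were used. MICAL2 of the effector list was not found in the annotation, so 45 of 46 were used. Alternatives changed the locus, the promoter width, the region class, the unit, the members, the cultures and the motif window.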

Additional observations from a re-analysis of the deposited data

Results flagged for a closer look

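Regions that hold lifted peaks of undefined sets and no stage peak were not used in any comparison. Of 40338 such regions, 268 overlapped an axon guidance locus, at 52 of the 70 genes. The share of all protein-coding loci with such a region is not given here, so these counts are not compared with other genes. Axon guidance loci are also longer, with a median of 56.9 kb against 25.9 kb. PLXNA4 had 19, SEMA5A and UNC5C had 18 each and SLIT1 had 16. ROBO4, which had no stage region, had 2, while EPHA8 had none.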

How the results depend on the processing

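The E80 share of regions called at 1 of E60 and E80 (34.4%) stayed within its interval for gene bodies alone, 50 kb upstream, region centres, distal regions, regions of at most 1 kb, autosomes, peaks as the unit, each family left out, the 3 largest loci left out, and UNC50 and UNC5CL left out (an alternative chosen after seeing the data). It was 27.3% for promoter regions alone (3 against 8 regions), where all protein-coding loci had 31.6%. For regions without lifted peaks it was 45.7% (35.4 to 56.3), where all protein-coding loci had 55.0%. The late-only share (36.6%) was 48.4% (37.9 to 59.0) without lifted peaks, where all protein-coding loci had 56.8% (55.7 to 57.9). It was 99.7% without the E60 culture and 5.0% without the E80 culture, since the smaller set then stands alone on that side. It stayed within its interval under the other alternatives. With 50 kb upstream, E50 regions numbered 176 in place of 112. Motif shares fall and rise with the window, so the share of all regions of the class follows each in brackets. Within 75 bp of the centre, AP-1 in E80-alone regions had 49.0% (35.1%). The homeobox motif in E60-alone regions had 11.3% (8.76%), and TEAD in all-stage regions 7.0% (2.11%). E-box shares were 18.0% (12.3%) in all-stage and 15.7% (19.7%) in E60-alone regions. In the same classes ACAAAG had 11.0% (10.3%) and 12.2% (18.1%), and ACAATG 7.0% (6.0%) and 6.09% (11.2%). Within 250 bp, the E-box shares were 41.0% (32.4%) and 41.7% (39.9%). E60-alone shares were then 41.7% (41.4%) for ACAAAG and 27.0% (27.4%) for ACAATG, and the E80-alone share was 66.7% (46.0%) for AP-1. No paired analysis was possible because the deposited columns carry no library names, and for the same reason no library was left out in turn. Read depth, and with it the reach of each peak set, is unknown here, and a region not called may have been open below the threshold.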
